A study of Mus musculus with 21 samples.

Results

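The transcripts of 9 genes were followed through a time course of mouse macrophages: the zinc-finger transcription factors Egr1, Egr2 and Egr3, and the dual-specificity phosphatases Dusp1, Dusp2, Dusp4, Dusp5, Dusp6 and Dusp16. They were chosen by symbol as outputs and brakes of mitogen-activated protein (MAP) kinase signalling, and they are 9 of the 23250 genes in the deposited table. The cells were grown from bone marrow of mice labelled C57BL/6J, for 7 days in medium holding 2.5% of the supernatant of a cell line that makes GM-CSF, a growth factor for macrophages and dendritic cells. The series describes them as deficient in the mannose receptor (MR, gene Mrc1), which then holds for every group, controls included. The age of the mice is not given in the sources used here, nor whether replicates came from separate mice.

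One arm received FcMR, a recombinant protein that joins the Fc region of human IgG1 to the extracellular region of MR, and was collected after 4, 12 or 24 h. A second arm received an isotype control over the same times, and another group was left untreated and collected at 0 h only. With 3 libraries in each of the 7 groups, 21 libraries were compared. The FcMR arm set against the isotype arm asks what the soluble receptor does to these cells. The isotype arm set against the untreated cells holds the control protein and the time in culture together, and these cannot be told apart.

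MAP kinases (ERK, JNK and p38) are switched on when an upstream kinase phosphorylates a threonine and a tyrosine next to each other in their activation loop. Active ERK reaches the nucleus and, through serum response factor and its ETS-family partners, starts transcription of early response genes, the EGR family among them. EGR proteins bind a GC-rich site and recruit the co-repressors NAB1 and NAB2, which limit EGR activity. Dual-specificity MAP kinase phosphatases remove both phosphates again. Many of their genes are themselves induced by MAP kinase activity, so they form a negative feedback loop, and in macrophages this loop limits the output of inflammatory cytokines.

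RefSeq's table of promoter windows (250 bases before and 50 after a start site, build GRCm38.p6) held 6 of the 9 members in 10 windows: Egr2, Dusp1, Dusp2, Dusp5, Dusp6 and Dusp16. The stretches below are shown because they carry the elements through which MAP kinase and cAMP signals are known to reach early genes: the CArG box, the core of the serum response element, and TGACGT, the core of a cAMP response element. Each is written 5′ to 3′ on the strand of its gene, ends before the RefSeq start site and has the matches in capitals. ACGTCA is TGACGT read on the other strand.
Egr2, chr10:67537777-67537838, plus strand: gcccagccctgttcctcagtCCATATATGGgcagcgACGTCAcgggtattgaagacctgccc
Dusp5, chr19:53529043-53529114, plus strand: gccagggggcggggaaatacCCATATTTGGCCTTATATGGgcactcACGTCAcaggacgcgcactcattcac
Dusp1, chr17:26508588-26508683, minus strand: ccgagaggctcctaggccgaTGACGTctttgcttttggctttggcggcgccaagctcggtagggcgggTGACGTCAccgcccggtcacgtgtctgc

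The Egr2 window that starts at position 67537619 has 1 CArG box at bases -72 to -63 from the start site and 1 TGACGT match at -56 to -51. Dusp5 has 2 CArG boxes end to end, at -82 to -73 and -72 to -63, followed by TGACGT at the same -56 to -51. Of all 32851 windows, 1.63% hold a CArG box, 7.51% hold TGACGT and 0.0913% (30 windows) hold both. Windows are counted per start site, so overlapping windows of 1 gene, such as 3 of the Egr2 windows, count separately. The Egr2 window that starts at position 67537316 has a CArG box as well, at -72 to -63 from its own start site. Dusp1 has no CArG match and has TGACGT at 2 sites, the second of which reads as TGACGT on both strands. The EGR site GCGNGGGCG, present in 5.55% of all windows, matched once in Dusp2 and once in Dusp16. The sites TGANTCA (AP-1, 7.81% of all windows) and GGGNNTTCC (NF-kB, 5.82%) were searched on both strands as well, and of the members only Dusp5 held one, a GGGNNTTCC match. Dusp6 held none of the 5. A match describes letters in these windows and is not evidence of binding.

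By GENCODE M21 (build GRCm38) and in gene order, Egr1 lies on chromosome 18, Egr2 at chr10:67535475-67542188, Egr3 at chr14:70077203-70082614, Dusp2 at chr2:127336159-127338376 and Dusp4 at chr8:34807297-34819894. Dusp5 lies at chr19:53529109-53542431, Dusp6 at chr10:99263231-99267489 and Dusp16 at chr6:134715468-134792625. Dusp1 is given by its RefSeq span on the same build, chr17:26505591-26508472, because the M21 model carries a later version number than the table and reaches across neighbouring genes. All 9 are protein-coding. Dusp5 and Dusp16 each overlap an antisense gene, so their reads could have been shared with it where counting ignored strand, which is not stated. Dusp1 overlaps 4 other genes in the M21 model, some of them on its own strand. Its reads could thus have been shared with a neighbour whether or not counting ignored strand.

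Library totals ran from 5532225 to 66729533 estimated counts, a 12.1-fold range, and levels are given as CPM (counts scaled to a common library size) after edgeR's TMM scaling. Mrc1 had 0 to 11 counts in every library. All 8 macrophage markers were detected in all 21 libraries, with a summed level of 20411 to 35843 CPM, and at 24 h of 25834 to 27760 CPM with FcMR against 31625 to 35843 with the isotype. Most of this sum was Lyz2, at 16643 to 30533 CPM. The highest level of any other macrophage marker in any library was 1804 CPM, of Itgam. The macrophage sum can thus follow Lyz2 alone and does not count macrophages. The sum of 7 dendritic cell markers was 1340 to 1851 CPM, carried by Itgax and Ccr7. Neutrophil markers (8 genes) summed to 1398 to 1623 CPM in untreated cells and to 183 to 228 CPM at 24 h over both arms. Mast cell and basophil markers (6 genes) summed to 55.9 to 60.5 CPM with FcMR at 4 h against 31.5 to 40.6 with the isotype, to 25.1 to 31.6 against 13.4 to 17.6 at 12 h, and to 8.05 to 14.5 against 7.40 to 7.98 at 24 h. For 5 fibroblast markers the sums were 4.47 to 6.06 against 2.44 to 3.79 CPM at 4 h, 10.3 to 16.8 against 2.08 to 2.79 at 12 h and 7.83 to 10.6 against 0.322 to 1.37 at 24 h, with Col3a1 at 0 in 16 libraries and Col1a2 at 0 in 12. The highest level in any library was 14.5 CPM for Pdgfrb, 3.49 for Dcn, 1.62 for Col1a1 and 0.287 for Col1a2 and Col3a1. This sum can thus follow Pdgfrb alone and does not count fibroblasts. The sum of 5 T and B cell markers was 2.32 to 6.39 CPM, with Cd3e at 0 in 12 libraries. The part of these other cells in the members' differences was not tested, and in bulk RNA fewer cells of a type and less RNA per cell cannot be told apart.

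The table's header and the titles place every library number in the same group. Within a group the numbers run on without a gap, with 2 exceptions. Isotype 4 h replicate 3 has number 3356 and FcMR 12 h replicate 1 has 3355, each where the other would be in running order. The tilt of each library towards GC-rich genes (mean log2 deviation from all libraries of genes of 57.7% GC or more, minus that of genes of 42.04% or less) also set both apart from their groups. It was 0.63 in isotype 4 h replicate 3 beside -0.84 and -1.59 in replicates 1 and 2, and -0.72 in FcMR 12 h replicate 1 beside 0.72 and 0.82. Results at 4 and 12 h are therefore also given without both libraries. The members' own transcripts are 46.6 to 56.7% GC, inside those bounds. Egr1, Egr3, Dusp2, Dusp4 and Dusp5 lie near the upper bound, at 55.5 to 56.7%. The tilt can thus reach the members, and a correction for GC content changed some of their calls, as given below. The p-values below measure only the spread between these libraries, which may be technical.

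**Figure D1:**
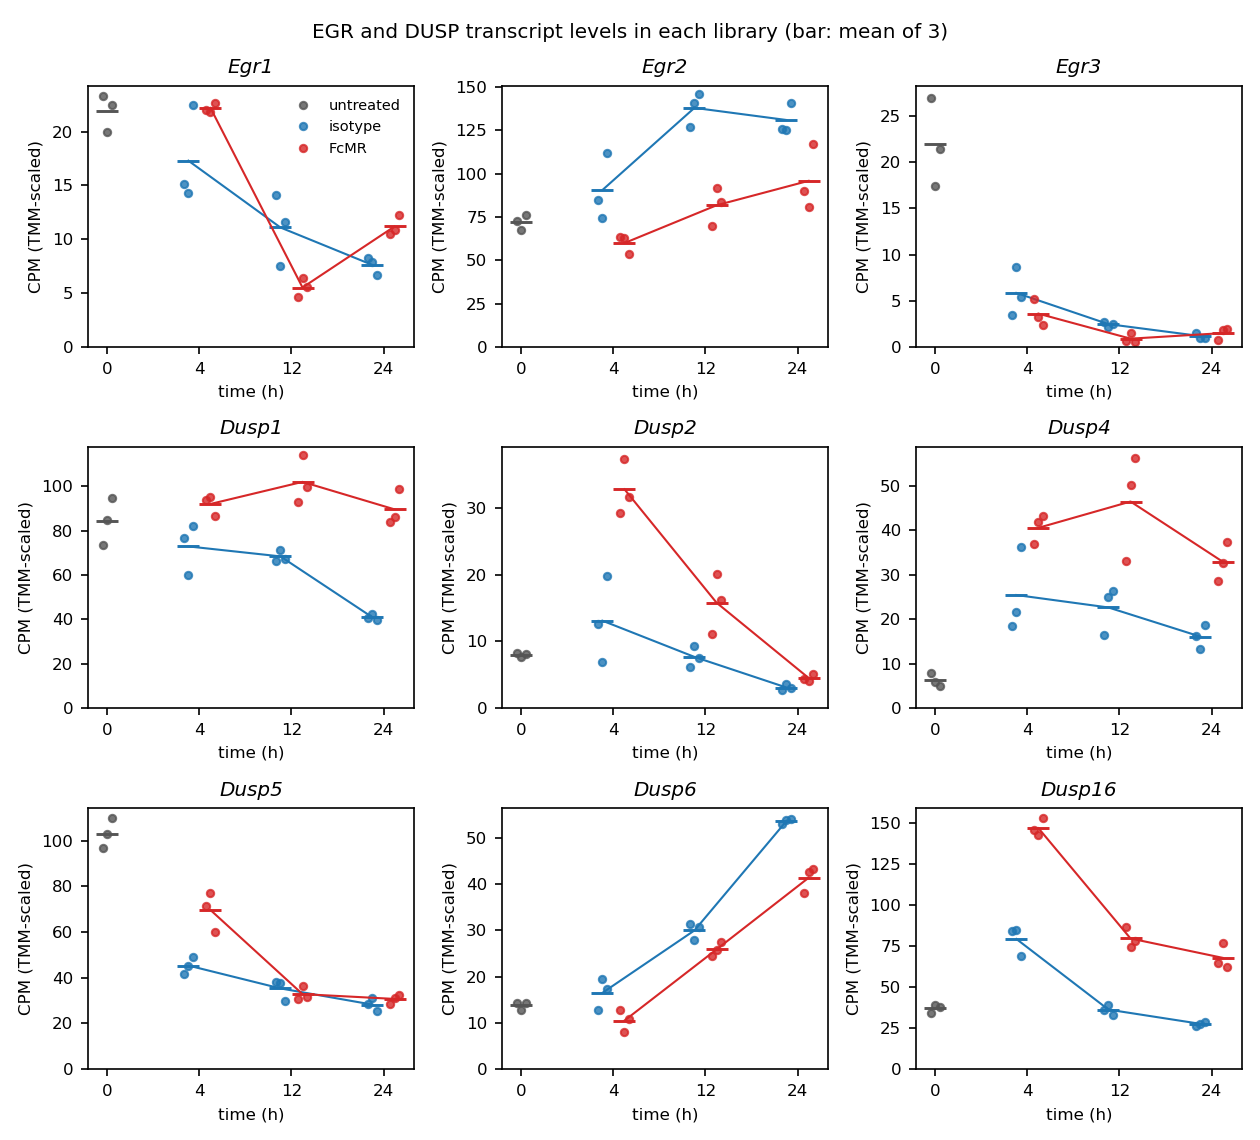
Level of each of the 9 genes in every library (points, TMM-scaled CPM, y axis from 0) against time in hours (x axis, 4 evenly spaced times), with untreated cells in grey, isotype in blue, FcMR in red and a bar at each mean of 3 libraries. Dusp16, Dusp1 and Dusp4 stand higher in every FcMR library than in any isotype library of the same time, and Egr2 stands lower.

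All 9 genes passed the filter on low counts. In the edgeR quasi-likelihood fit, with p-values adjusted over all genes tested and 0.05 as threshold, FcMR and isotype differed at 4 h in 5 of the 9 (3 higher with FcMR, 2 lower), where 17.7% of all 13468 genes passed (8.62% higher, 9.13% lower). At 12 h the count was 7 of 9 (4 higher, 3 lower) beside 16.1% of all genes (8.61% higher, 7.49% lower). At 24 h it was 4 of 9 (3 higher, 1 lower) beside 20.9% (11.4% higher, 9.44% lower). The 3 libraries of each arm did not overlap for 7, 8 and 7 of the 9 at 4, 12 and 24 h, beside 29.7%, 35.4% and 34.4% of all genes. Among the called differences, every EGR difference was a fall, and every phosphatase difference was a rise except that of Dusp6 at 4 h. Of the EGR differences that did not pass, Egr1 at 4 h (log2 0.35) and 24 h (0.55) and Egr3 at 24 h (0.37) were rises, and Egr3 at 4 h (-0.64) was a fall. Without both libraries out of order, Egr1 passed as higher at 4 h (0.59, edgeR adjusted p = 0.0236) and at 24 h (0.56, 0.0213). The median log2 difference of the 9 was 0.35, -0.10 and 0.53 at the 3 times, beside -0.07, -0.02 and 0.01 over all genes. No called difference of a member changed direction under any of the 32 alternative settings. Of all genes called at 4 h, 48.6% were higher with FcMR under TMM scaling, 62.7% under RLE factors and 64.4% in DESeq2. In brackets below, a log2 difference (± its SE where given) stands before its edgeR adjusted p.

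**Figure D2:**
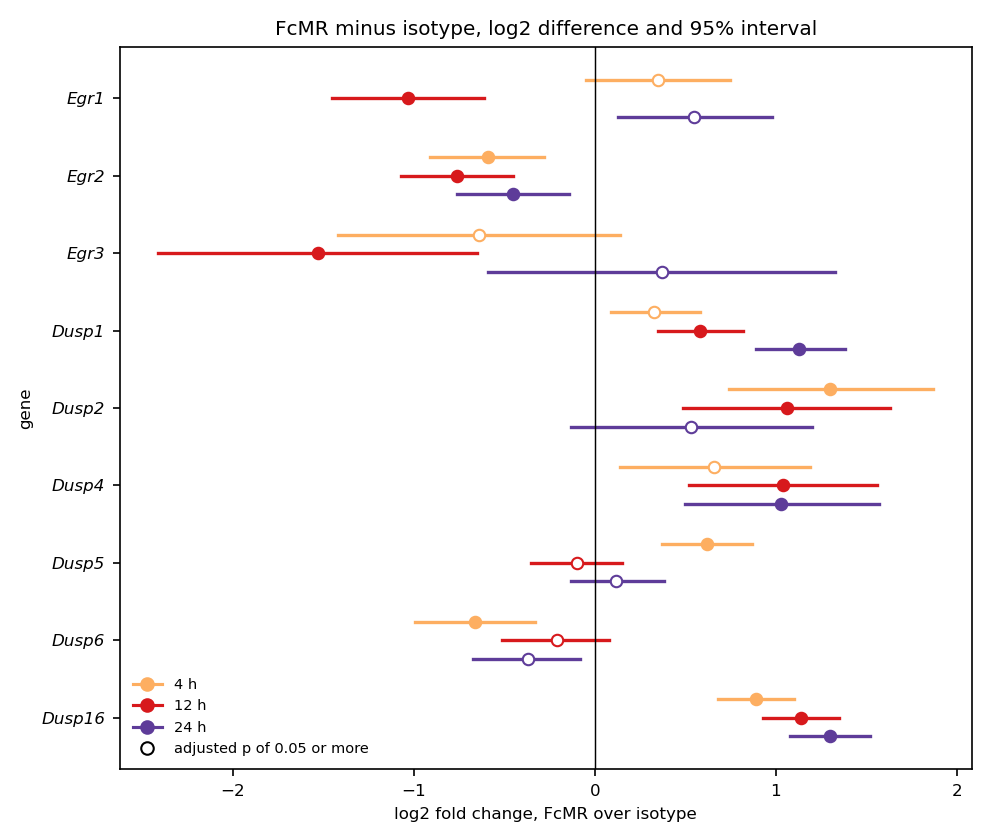
Log2 fold change of FcMR over isotype (x axis) for each gene (y axis) at 4 h (orange), 12 h (red) and 24 h (purple), with 95% intervals of the edgeR fit that are not adjusted for the number of genes. Filled points have an adjusted p under 0.05: Dusp16 is to the right of 0 and filled at all 3 times, and Egr2 is to the left and filled at all 3.

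Egr1 encodes the founding member of the family, a rapid relay of ERK activity to gene expression. Untreated libraries 1 to 3 held Egr1 at 23.3, 20.01 and 22.5 CPM. In the isotype arm Egr1 read 15.1, 14.3 and 22.5 at 4 h, 14.1, 7.48 and 11.6 at 12 h and 8.24, 7.93 and 6.69 at 24 h. In the FcMR arm it read 21.96, 21.8 and 22.7 at 4 h, 4.62, 6.37 and 5.59 at 12 h and 10.5, 10.9 and 12.3 at 24 h. The 2 arms overlapped at 4 h, where isotype replicate 3 was as high as the FcMR libraries. At 12 h all FcMR libraries lay below all isotype libraries, and at 24 h all lay above. The change with FcMR was thus a 2.04-fold fall at 12 h (log2 -1.03 ± 0.20; edgeR adjusted p = 0.00116), and the differences at 4 h (0.35, adjusted p = 0.237) and 24 h (0.55, adjusted p = 0.0625) did not pass. Leaving out both libraries that stand out of order, edgeR gave 0.59 (adjusted p = 0.0236) at 4 h, -0.94 (adjusted p = 0.00158) at 12 h and 0.56 (adjusted p = 0.0213) at 24 h. Leaving out isotype 4 h replicate 3 alone also brought the 4 h difference past the threshold, at 0.59 (adjusted p = 0.0347) in edgeR, and 5 single libraries did so at 24 h (isotype 4 h replicates 2 and 3, isotype 12 h replicates 1 and 2, FcMR 12 h replicate 1), each at 0.56. From highest to lowest the Egr1 means were FcMR 4 h (22.2 CPM), untreated (21.9), isotype 4 h (17.3), FcMR 24 h (11.2), isotype 12 h (11.1), isotype 24 h (7.62) and FcMR 12 h (5.53), a 4.01-fold span. Neighbours in that order overlapped in their libraries, apart from isotype 4 h against FcMR 24 h and isotype 24 h against FcMR 12 h.

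Egr2, a regulator of myeloid differentiation and of lymphocyte tolerance, was the EGR gene with the highest level per length in these cells, at 32.3 CPM per kb averaged over the groups beside 3.08 for Egr1 and 1.36 for Egr3. It read 72.9, 67.7 and 76.01 CPM in untreated libraries. With the isotype it read 84.7, 74.7 and 112 at 4 h, 127, 141 and 146 at 12 h and 126, 125 and 141 at 24 h. With FcMR Egr2 read 63.4, 63.00 and 53.7 at 4 h, 69.9, 91.8 and 83.8 at 12 h and 90.2, 80.7 and 117 at 24 h. Every FcMR library was below every isotype library at each time. Egr2 fell 1.51-fold at 4 h (log2 -0.59 ± 0.15; edgeR adjusted p = 0.00998), 1.69-fold at 12 h (-0.76 ± 0.15; 0.00132) and 1.37-fold at 24 h (-0.45 ± 0.15; 0.0375). Its log2 difference without both libraries out of order was -0.40 (adjusted p = 0.0341) at 4 h and -0.66 (adjusted p = 0.00190) at 12 h by edgeR. The 4 h call rested on single libraries: the edgeR log2 difference became -0.40 (adjusted p = 0.0546) without isotype 4 h replicate 3 and -0.46 (adjusted p = 0.0607) without FcMR 4 h replicate 3. At 24 h the call was lost without any of the 3 isotype libraries, FcMR replicate 1 or 2, or untreated replicate 1, with log2 values from -0.47 to -0.33. Egr2 means ran from isotype 12 h (138 CPM) and isotype 24 h (131), which overlapped, through FcMR 24 h (95.9), isotype 4 h (90.6), FcMR 12 h (81.8) and untreated cells (72.2), which overlapped from each to the next, to FcMR 4 h (60.02). Isotype 24 h against FcMR 24 h and untreated cells against FcMR 4 h were without overlap.

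Egr3, an early gene that EGR1 can itself induce, was scarce after 0 h. Untreated libraries had 277, 379 and 262 Egr3 counts, or 26.9, 17.4 and 21.4 CPM. With the isotype Egr3 read 3.45, 8.66 and 5.45 CPM at 4 h, 2.75, 2.20 and 2.50 at 12 h and 1.57, 0.965 and 1.03 at 24 h. With FcMR it read 5.17, 3.23 and 2.42 at 4 h, 0.661, 1.48 and 0.583 at 12 h and 0.720, 1.87 and 1.95 at 24 h, and the 12 h values rest on only 9, 17 and 12 counts. The arms overlapped at 4 and 24 h, and at 12 h all FcMR libraries were lower. That 12 h fall was 2.89-fold (log2 -1.53 ± 0.42; edgeR adjusted p = 0.0164), while the differences at 4 h (-0.64, 0.269) and 24 h (0.37, 0.647) did not pass. The 12 h call was lost without both libraries out of order (-1.40, adjusted p = 0.0614 by edgeR), and the 4 h difference was then -0.67 (adjusted p = 0.242). It was also lost without FcMR 12 h replicate 1 (0.0703) or 3 (0.0990) or isotype 12 h replicate 1 (0.0554) or 3 (0.0501), as edgeR adjusted p. Untreated cells (21.9 CPM) stood apart from every other group, and below them came isotype 4 h (5.85), FcMR 4 h (3.61), isotype 12 h (2.48), FcMR 24 h (1.51), isotype 24 h (1.19) and FcMR 12 h (0.909), with overlap between neighbours except isotype 12 h and FcMR 24 h.

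Dusp1, Dusp2, Dusp4 and Dusp5 encode the nuclear, inducible MAP kinase phosphatases. Dusp1 (MKP-1) acts mainly on p38 and JNK and is a well-known restraint on cytokine production by macrophages. It read 73.7, 84.96 and 94.8 CPM in untreated cells. With the isotype Dusp1 read 76.7, 60.1 and 82.03 at 4 h, 66.5, 71.3 and 67.4 at 12 h and 40.8, 42.2 and 39.5 at 24 h. With FcMR Dusp1 read 93.99, 95.3 and 86.8 at 4 h, 93.1, 114 and 99.8 at 12 h and 83.8, 86.2 and 98.9 at 24 h. FcMR libraries were higher than all isotype libraries at every time, and their level stayed within the range of 83.8 to 114 CPM while the isotype level declined. The difference did not pass at 4 h (log2 0.33 ± 0.11; edgeR adjusted p = 0.0515) and passed as a rise of 1.50-fold at 12 h (0.58 ± 0.11; 0.00123) and 2.19-fold at 24 h (1.13 ± 0.12; 1.08e-06). Without both libraries out of order the edgeR values were 0.43 (adjusted p = 0.0126) at 4 h and 0.65 (adjusted p = 5.18e-04) at 12 h. The 4 h difference of Dusp1 lay so near the threshold that leaving out any 1 library brought it past (log2 0.34 to 0.43), except untreated replicate 2 and replicates 1 and 2 of either arm at 4 h. Its means ran FcMR 12 h (102 CPM), FcMR 4 h (92.04), FcMR 24 h (89.6), untreated (84.5), isotype 4 h (72.9), isotype 12 h (68.4) and isotype 24 h (40.9), and neighbours overlapped except the last 2.

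Dusp2 (PAC-1), first known from activated immune cells, had the largest log2 difference of the 9 genes at 4 h. It read 8.26, 7.64 and 8.17 CPM in untreated cells. With the isotype Dusp2 read 12.6, 6.85 and 19.8 at 4 h, 6.23, 9.24 and 7.54 at 12 h and 2.65, 3.64 and 2.96 at 24 h. With FcMR Dusp2 read 29.3, 37.4 and 31.7 at 4 h, 11.1, 20.1 and 16.2 at 12 h and 4.32, 4.12 and 5.12 at 24 h. All FcMR libraries exceeded all isotype libraries of their time, and both arms were highest at 4 h and lowest at 24 h. Dusp2 rose 2.47-fold at 4 h (log2 1.30 ± 0.27; edgeR adjusted p = 0.00228) and 2.08-fold at 12 h (1.06 ± 0.27; 0.00987), and the 24 h difference of 0.53 ± 0.32 did not pass (0.279). Dusp2 gave 1.74 (adjusted p = 2.54e-05) at 4 h and 1.26 (adjusted p = 1.75e-04) at 12 h in edgeR without both libraries out of order. The 12 h call was lost without isotype 12 h replicate 1 (0.93, adjusted p = 0.0568) or FcMR 12 h replicate 2 (0.85, adjusted p = 0.0527) in edgeR. Dusp2 means ran FcMR 4 h (32.8 CPM), FcMR 12 h (15.8), isotype 4 h (13.1), untreated (8.02), isotype 12 h (7.67), FcMR 24 h (4.52) and isotype 24 h (3.08), where the first and the last 2 steps had no overlap and the others did.

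Dusp4 (MKP-2), which acts on ERK and JNK, was the member furthest above its untreated level, with a FcMR 12 h mean 7.36-fold the untreated mean. It read 7.97, 5.89 and 5.07 CPM before treatment. The isotype arm gave Dusp4 18.5, 21.5 and 36.1 at 4 h, 16.4, 24.9 and 26.3 at 12 h and 16.3, 13.2 and 18.7 at 24 h. The FcMR arm gave Dusp4 36.8, 41.7 and 43.04 at 4 h, 33.1, 50.03 and 56.1 at 12 h and 28.6, 32.6 and 37.4 at 24 h. All FcMR libraries were higher than all isotype libraries at each time, by the least at 4 h, where isotype replicate 3 was close to the FcMR values. Dusp4 rose 2.06-fold at 12 h (log2 1.04 ± 0.25; edgeR adjusted p = 0.00581) and 2.05-fold at 24 h (1.03 ± 0.25; 0.00636), and the 4 h difference of 0.66 ± 0.25 did not pass (0.0782). Without both libraries out of order the edgeR difference at 4 h became 1.02 (adjusted p = 0.00226) and that at 12 h 1.23 (adjusted p = 1.67e-04). Isotype 4 h replicate 3 alone moved the 4 h value to 1.02 (adjusted p = 0.00753) when left out, and leaving out FcMR 12 h replicate 1 gave 0.68 (adjusted p = 0.0434), both in edgeR. Dusp4 means ran FcMR 12 h (46.4 CPM), FcMR 4 h (40.5), FcMR 24 h (32.9), isotype 4 h (25.4), isotype 12 h (22.6), isotype 24 h (16.05) and untreated (6.31), and only the last step was without overlap.

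Dusp5, a nuclear phosphatase specific to ERK, was highest before treatment. Its untreated libraries read 96.8, 103 and 110 CPM. The isotype arm held Dusp5 at 41.8, 45.1 and 49.1 at 4 h, 38.3, 37.7 and 29.8 at 12 h and 28.4, 30.9 and 25.2 at 24 h. The FcMR arm held it at 71.3, 77.1 and 60.2 at 4 h, 30.8, 36.3 and 31.5 at 12 h and 28.4, 31.1 and 32.6 at 24 h. The arms were apart at 4 h, with FcMR between the untreated and the isotype levels, and overlapped at 12 and 24 h. Dusp5 was 1.54-fold higher with FcMR at 4 h (log2 0.62 ± 0.12; edgeR adjusted p = 0.00116), and the differences at 12 h (-0.10, 95% interval -0.35 to 0.15; 0.689) and 24 h (0.12, -0.13 to 0.38; 0.548) did not pass. Dusp5 gave 0.69 (adjusted p = 0.00132) at 4 h and -0.05 (adjusted p = 0.891) at 12 h in edgeR without both libraries out of order. Dusp5 has the most GC-rich transcripts of the 9 genes (56.7%), and with a correction for GC content its 4 h difference was 0.48 (adjusted p = 0.117) in edgeR, so that call was lost, while the GC correction with the replicate block kept it at 0.47 (adjusted p = 0.0494). Dusp5 means ran untreated (103 CPM), FcMR 4 h (69.6), isotype 4 h (45.3), isotype 12 h (35.3), FcMR 12 h (32.8), FcMR 24 h (30.7) and isotype 24 h (28.2), the first 3 steps without overlap and the rest with it. Egr2 and Dusp5, whose promoter stretches above both carry a CArG box and TGACGT, differed in opposite directions at 4 h, at log2 -0.59 and 0.62. The equal distance of these matches from the start holds for the Egr2 window that starts at position 67537619. From the starts of the windows that overlap it, the same TGACGT match begins at -57 and -117.

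Dusp6 (MKP-3) is the cytoplasmic, ERK-selective phosphatase and a common readout of sustained ERK activity. Untreated libraries held it at 14.3, 12.8 and 14.4 CPM. With the isotype Dusp6 read 12.8, 19.5 and 17.3 at 4 h, 31.5, 27.9 and 30.7 at 12 h and 53.1, 53.9 and 54.2 at 24 h. With FcMR Dusp6 read 12.7, 8.01 and 10.8 at 4 h, 24.4, 25.8 and 27.5 at 12 h and 38.2, 42.7 and 43.4 at 24 h. FcMR libraries were lower than all isotype libraries at each time, although at 4 h the nearest pair were as close as 12.7 and 12.8 CPM. Dusp6 fell 1.58-fold with FcMR at 4 h (log2 -0.66 ± 0.16; edgeR adjusted p = 0.00596), and the differences at 12 h (-0.21 ± 0.14; 0.390) and 24 h (-0.37 ± 0.14; 0.0715) did not pass. It gave -0.63 (adjusted p = 0.0191) at 4 h and -0.18 (adjusted p = 0.575) at 12 h in edgeR without both libraries out of order. Leaving out isotype 4 h replicate 2, the highest of that group, gave -0.50 (adjusted p = 0.0505) at 4 h, and leaving out FcMR 4 h replicate 2 brought the 24 h difference past the threshold at -0.36 (adjusted p = 0.0360), both in edgeR. That 24 h difference passed under 6 of the 11 alternatives other than leaving out 1 library (log2 -0.48 to -0.37), DESeq2 (adjusted p = 0.0231) and limma voom (0.0296) among them. Dusp6 means ran isotype 24 h (53.7 CPM), FcMR 24 h (41.4), isotype 12 h (30.01), FcMR 12 h (25.9), isotype 4 h (16.5), untreated (13.8) and FcMR 4 h (10.5), and only isotype 4 h and untreated overlapped.

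Dusp16 (MKP-7), which acts on JNK and p38, was the member with the lowest adjusted p at each time. It read 34.4, 38.9 and 37.8 CPM in untreated cells. With the isotype Dusp16 read 84.4, 84.8 and 68.9 at 4 h, 36.2, 39.3 and 33.3 at 12 h and 26.3, 27.6 and 28.96 at 24 h. With FcMR Dusp16 read 146, 143 and 153 at 4 h, 86.5, 74.6 and 78.1 at 12 h and 64.8, 76.8 and 62.1 at 24 h. The arms did not overlap at any time, and the FcMR libraries at 24 h were still above the untreated ones. Dusp16 rose 1.86-fold at 4 h (log2 0.89 ± 0.10; edgeR adjusted p = 7.94e-06), 2.21-fold at 12 h (1.14 ± 0.10; 2.98e-07) and 2.46-fold at 24 h (1.30 ± 0.10; 4.85e-08). Without both libraries out of order the edgeR values were 0.80 (adjusted p = 2.08e-05) and 1.08 (adjusted p = 3.95e-07) at 4 and 12 h, and none of the 32 alternatives ended any of these 3 calls. Dusp16 means ran FcMR 4 h (147 CPM), FcMR 12 h (79.7), isotype 4 h (79.4), FcMR 24 h (67.9), untreated (37.02), isotype 12 h (36.3) and isotype 24 h (27.6). Neighbours overlapped from FcMR 12 h to FcMR 24 h and between untreated and isotype 12 h, and the other steps were without overlap.

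Per kb of the longest coding transcript and averaged over the 7 groups, Dusp1 was the most abundant phosphatase at 39.5 CPM per kb. Dusp5 followed at 19.9, Dusp16 at 13.3, Dusp4 at 9.91, Dusp6 at 9.81 and Dusp2 at 7.50. The lowest group mean on this scale was 0.231 CPM per kb, of Egr3, and the highest was 51.5, of Dusp1. These values set levels between genes and assume the longest coding transcript for each, which the data do not show to be the one in use.

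Whether the difference between FcMR and isotype itself changed over time was asked of each gene with a joint edgeR test of both changes from 4 h. It passed for 3 of the 9 genes, beside 11.02% of all genes. Egr1 (adjusted p = 0.00184) had log2 values of 0.35, -1.03 and 0.55 at the 3 times. Dusp1 (edgeR adjusted p = 0.00849) widened from 0.33 through 0.58 to 1.13. Dusp5 (edgeR adjusted p = 0.0197) went from 0.62 to -0.10 and 0.12. The joint test did not pass for Egr2 (0.621), Egr3 (0.126), Dusp2 (0.461), Dusp4 (0.726), Dusp6 (0.349) or Dusp16 (0.155), which does not show that their differences were equal over time. Without both libraries out of order the edgeR adjusted p was 7.13e-04 for Egr1, 0.0104 for Dusp1, 0.0220 for Dusp5, 0.0348 for Dusp2 and 0.0279 for Dusp16, so 5 then passed. The calls over all genes grew as well in that fit, from 1484 to 2616 genes. The Dusp5 result was lost with the GC correction (edgeR adjusted p = 0.674) and without isotype 4 h replicate 1 (0.0583) or FcMR 4 h replicate 1 (0.0583) or 2 (0.0823), and Dusp16 passed without isotype 4 h replicate 3 (0.0361).

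The isotype arm was then set against untreated cells. By edgeR 5 of the 9 passed at 4 h (3 higher, 2 lower) beside 35.6% of all genes (20.4% higher, 15.2% lower). At 12 h 7 passed (3 higher, 4 lower) beside 41.6% (22.02% higher, 19.6% lower), and at 24 h all 9 passed (3 higher, 6 lower) beside 42.2% (21.3% higher, 20.9% lower). The libraries of isotype and untreated did not overlap for 4, 7 and 9 of the 9, beside 42.4%, 61.8% and 62.7% of all genes. These comparisons share the isotype libraries with those above, and all 3 share the same untreated libraries, so their directions are given side by side and not as separate support.

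Egr1 and Egr3 fell in the isotype arm at 12 and 24 h, and Egr2 rose. Egr3 fell most of the 9, by 3.78-fold at 4 h (log2 -1.92 ± 0.35; edgeR adjusted p = 3.52e-04), 8.68-fold at 12 h and 18.1-fold at 24 h (-4.18 ± 0.41; 2.51e-07). The Egr1 difference did not pass at 4 h (-0.33; 0.189), and Egr1 was 1.94-fold lower at 12 h (edgeR adjusted p = 5.31e-04) and 2.86-fold lower at 24 h (7.53e-06). Without both libraries out of order the 4 h value of Egr1 was -0.57 (adjusted p = 0.0153) in edgeR, and without isotype 4 h replicate 3 alone -0.57 (adjusted p = 0.0220). Egr2 was 1.91-fold higher at 12 h (edgeR adjusted p = 5.94e-05) and 1.81-fold higher at 24 h (1.46e-04), with 0.33 (0.0951) at 4 h and 0.15 (adjusted p = 0.375) there without both libraries.

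Among the nuclear phosphatases Dusp5 fell at each time, by 2.27-fold at 4 h and 3.65-fold at 24 h (edgeR adjusted p = 3.63e-07 and 1.08e-09). Dusp4 rose at each time, most at 4 h (4.08-fold; edgeR adjusted p = 1.17e-05) and least at 24 h (2.56-fold; 5.59e-04), with a 4 h value of 1.68 (adjusted p = 1.57e-05) without both libraries out of order. Dusp1 was 2.07-fold lower at 24 h (edgeR adjusted p = 9.84e-07), while its small 12 h fall (log2 -0.31; 0.0372) was lost (-0.31 to -0.22) when 1 of 11 libraries was left out: untreated replicate 2 or 3, isotype 4 h replicate 1, any isotype library of 12 or 24 h, FcMR 12 h replicate 3 or FcMR 24 h replicate 1. At 4 h Dusp1 gave -0.21 (0.165) with all libraries and -0.30 (adjusted p = 0.0422) without both in edgeR. Dusp2 passed narrowly at 4 h as higher (log2 0.73; edgeR adjusted p = 0.0476), with overlapping libraries. It gave 0.30 (adjusted p = 0.266) without both libraries and lost its call (log2 0.30 to 0.75) when any 1 library was left out except isotype 4 h replicate 2, FcMR 4 and 12 h replicates 1 and 2 and FcMR 24 h replicate 2. Dusp2 was then -0.08 (0.842) at 12 h and 2.59-fold lower at 24 h (edgeR adjusted p = 0.00140).

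Dusp6 climbed from a difference that did not pass at 4 h (log2 0.26; edgeR adjusted p = 0.204; 0.22, adjusted p = 0.326 without both libraries out of order) to 2.18-fold higher at 12 h (6.44e-06) and 3.89-fold higher at 24 h (7.90e-09). Dusp16 was 2.14-fold higher at 4 h (edgeR adjusted p = 1.38e-07), at -0.04 (0.816) at 12 h and 1.34-fold lower at 24 h (0.00272). In limma on the authors' normalized table that 24 h difference was -0.22 (adjusted p = 0.360), so the call was lost. Its 4 h value without both libraries was 1.19 (adjusted p = 3.69e-08), and those of Egr3 and Dusp5 were -1.87 (adjusted p = 0.00114) and -1.24 (adjusted p = 1.42e-06), all in edgeR.

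**Figure D3:**
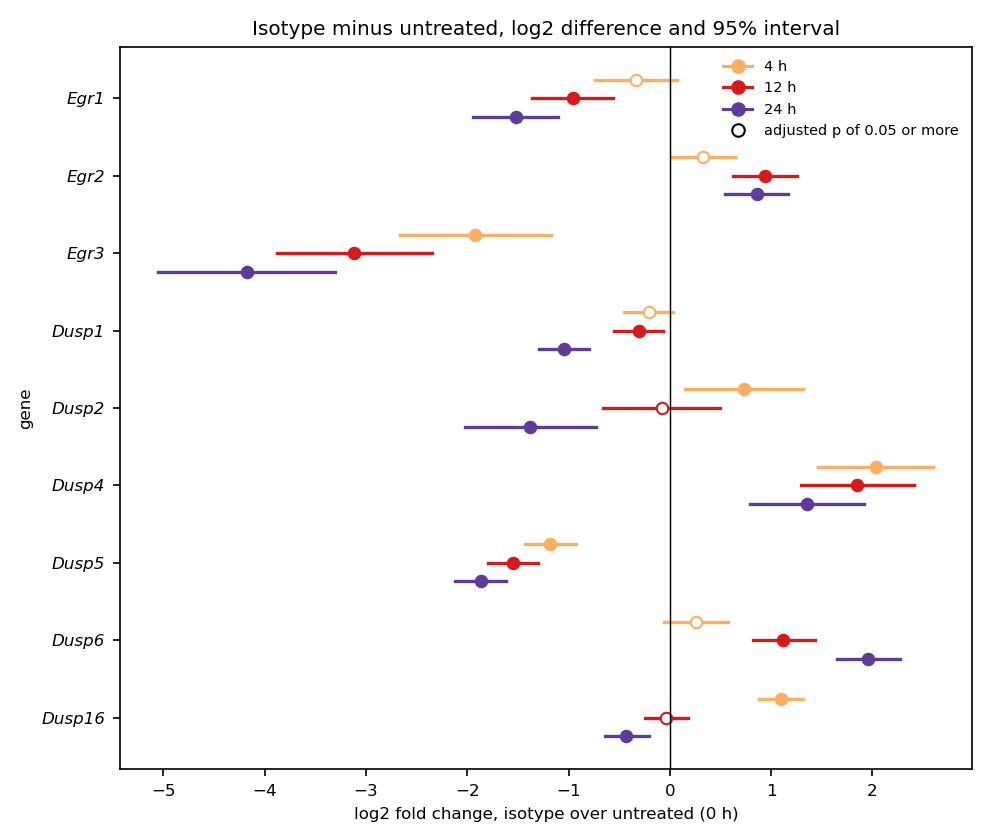
Log2 fold change of isotype over untreated cells (x axis) for each gene (y axis) at 4 h (orange), 12 h (red) and 24 h (purple), with unadjusted 95% intervals of the edgeR fit and filled points for an adjusted p under 0.05. All 9 points at 24 h are filled, with Egr3 furthest to the left and Dusp6 furthest to the right.

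Other genes of the pathway were read from lists chosen by function, with the same edgeR calls. Of the EGR co-repressors, neither passed at 4 h between FcMR and isotype. Nab1 rose at 12 h (log2 0.34 ± 0.09, SE; edgeR adjusted p = 0.0184) and at 24 h (0.69 ± 0.10; 3.53e-05), and Nab2 fell at 12 h (-0.90 ± 0.27; 0.0306). The Nab1 call at 12 h was lost without both libraries out of order (0.27, adjusted p = 0.0861 in edgeR). The remaining MAP kinase phosphatases Dusp7, Dusp8, Dusp9 and Dusp10 were tested too. Of these 4, 0, 0 and 1 passed at 4, 12 and 24 h, beside 17.7%, 16.1% and 20.9% of all genes. At 24 h Dusp7, an ERK phosphatase of the cytoplasm like Dusp6, was lower with FcMR (-0.89 ± 0.22; edgeR adjusted p = 0.00737). Their median log2 difference was -0.09, -0.17 and -0.38 at 4, 12 and 24 h, where all genes had -0.07, -0.02 and 0.01. Between isotype and untreated cells, 2, 2 and 3 of these 4 passed, beside 35.6%, 41.6% and 42.2% of all genes. The ones given here were chosen after their values were seen. Dusp10, a JNK and p38 phosphatase, was lower in the isotype arm at all 3 times (log2 -1.15, -2.14 and -1.97; edgeR adjusted p = 0.00162, 2.26e-06 and 8.50e-06). Dusp7 was lower at 4 h (-0.73) and higher at 24 h (0.64). Dusp8 was lower at 12 h (-2.42 ± 0.59) and 24 h (-3.86 ± 0.76). Dusp8 was scarce, with means of 2.24 CPM in untreated cells and 0.439 and 0.140 with the isotype at those times, so its log2 values rest on few counts.

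Atypical dual-specificity phosphatases lack the kinase-binding domain of the members. Of 9 tested, 1 rose and 1 fell with FcMR at 4 h, 1 rose and 2 fell at 12 h, and 1 rose and 3 fell at 24 h, beside 17.7%, 16.1% and 20.9% of all genes called in either direction. Dusp14 was the one that rose each time, by log2 1.69, 2.45 and 2.66 (edgeR adjusted p = 3.13e-05, 4.18e-07 and 2.97e-07). Each log2 value was larger than that of any of the 6 member phosphatases at that time, but Dusp14 was scarce. Its means were 5.44, 3.63 and 3.73 CPM with FcMR against 1.69, 0.713 and 0.592 with the isotype. Dusp3 fell each time (-0.43, -0.67 and -0.88; 6.33e-04, 4.67e-06 and 1.10e-07), joined by Dusp18 at 12 h (-0.72) and by Dusp23 (-0.61) and Dusp22 (-0.41) at 24 h. The list's medians were -0.13, -0.02 and -0.14.

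Sprouty and SPRED proteins hold back ERK signalling upstream, near the receptor. Of 5 tested, Spry1 rose at 4 h (log2 2.05 ± 0.42; edgeR adjusted p = 0.00202) and Spred1 at 4 h (0.56), 12 h (0.96; 1.79e-04) and 24 h (0.44; 0.0465). At 24 h Spry2 (-1.13 ± 0.25; edgeR adjusted p = 0.00253) and Spred2 (-0.41) fell. The 24 h call of Spred1 was lost under 6 of 11 alternatives other than leaving out 1 library, and that of Spry1 at 4 h under none of them. In all 2, 1 and 3 of the 5 passed at 4, 12 and 24 h, beside 17.7%, 16.1% and 20.9% of all genes, and the medians were 0.06, -0.00 and -0.23.

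Of 23 kinases of the ERK, JNK and p38 cascades, 5 rose and 2 fell at 4 h, 5 rose and 4 fell at 12 h, and 5 rose and 2 fell at 24 h, beside 17.7%, 16.1% and 20.9% of all genes called in either direction. The list's median stayed between -0.01 and 0.07. Largest among the rises at 4 h were Map3k8 (TPL2, the kinase that feeds ERK in activated macrophages; log2 0.87 ± 0.10; edgeR adjusted p = 1.23e-05), Map2k1 (0.70) and Mapkapk2 (0.70), a p38 target kinase that stabilises cytokine mRNA. At 12 and 24 h Map3k5 (ASK1, upstream of JNK and p38) led, at 1.25 and 1.12 (edgeR adjusted p = 5.70e-07 and 1.74e-06), followed by Mapkapk2 (0.57 and 0.72). Falls included Map3k1 (-0.44 at 4 h and -0.52 at 12 h), Mknk1 (-0.40 at 4 h and -0.48 at 24 h), Rps6ka3 (-0.54 and -0.56 at 12 and 24 h) and Mapk3, which encodes ERK1 (-0.54 at 12 h). The Mapk3 call was lost without both libraries out of order (-0.43, adjusted p = 0.0766 in edgeR), with no filter (-0.51, adjusted p = 0.0928) and without any 1 library of untreated cells or isotype 12 h, or FcMR 12 h replicate 1 or 2 (log2 -0.58 to -0.43).

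Of 23 other immediate early and ERK output genes, 4 rose and 1 fell at 4 h, 3 rose and 6 fell at 12 h, and 4 rose and 5 fell at 24 h, beside 17.7%, 16.1% and 20.9% of all genes called in either direction, with medians of 0.26, -0.33 and -0.07. Fos, like Egr1 a classic early response gene, fell at 4 h (log2 -0.93; edgeR adjusted p = 0.00137) and at 12 h (-2.14; 1.27e-07), and also at 24 h (-1.14; 7.36e-05), when Egr2 was the one EGR gene called lower. Myc (-1.75 and -1.91) and Ccnd1 (-1.42 and -2.40), which drive growth and the cell cycle, fell at 12 and 24 h (edgeR adjusted p = 2.18e-04, 1.29e-04, 1.22e-04 and 5.37e-07), and Etv5 (-1.45 ± 0.16), an ETS factor often induced by ERK, fell at 24 h. Rising genes were the nuclear receptors Nr4a3 at 4 h (1.16) and Nr4a2 at 12 and 24 h (1.37 and 1.50), Ier3 at 4 h (0.90), Phlda1 at 12 and 24 h (0.74 and 1.16) and the receptor Epha4 at all 3 times (1.21, 1.63 and 2.33; edgeR adjusted p = 2.10e-05, 8.92e-07 and 2.63e-08). Ier3 at 4 h (edgeR adjusted p = 0.0408) kept its call in 16 of 21 fits that left out 1 library. Phlda1 at 12 h (edgeR adjusted p = 0.0425) kept it in 15 of 21. With only the groups compared both calls were lost (edgeR adjusted p = 0.144 and 0.0653).

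**Figure D4:**
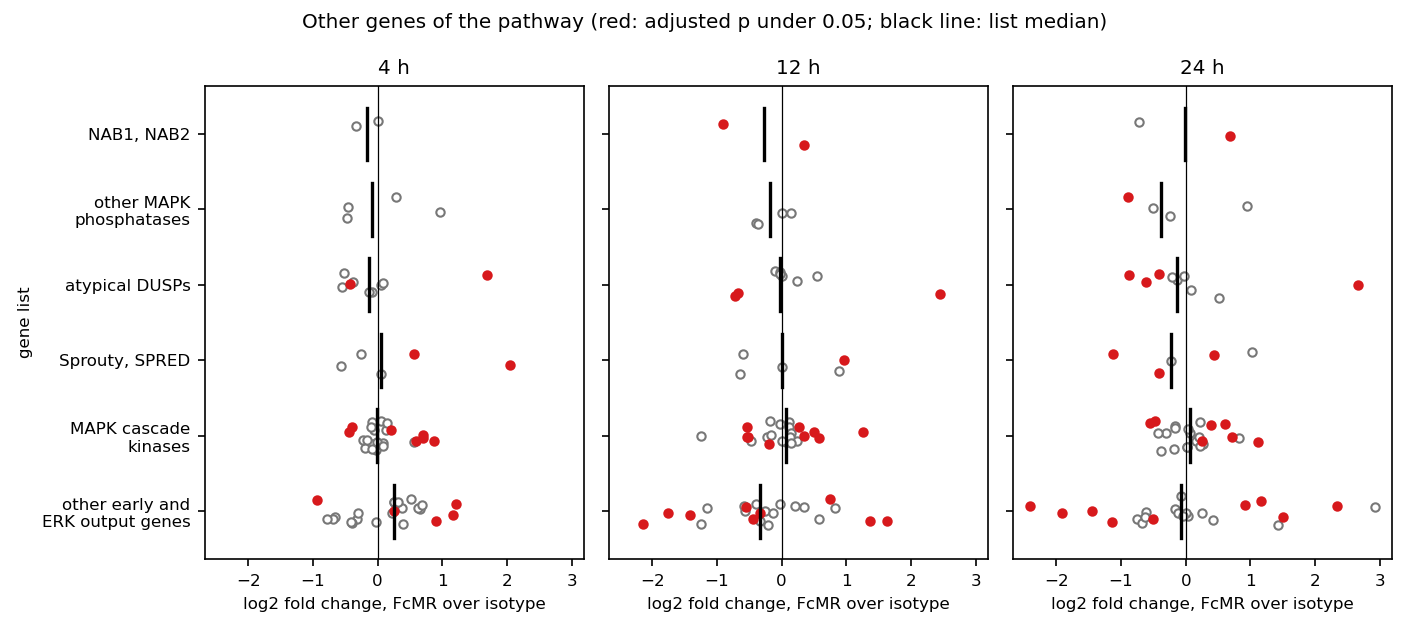
Log2 fold change of FcMR over isotype (x axis) for each gene of 6 pathway lists (y axis, points spread at random within a list) at 4, 12 and 24 h (panels), with an adjusted p under 0.05 in red and the list median as a black line. Red points lie on both sides of 0 in most lists, and Dusp14 is the red point far to the right among the atypical DUSPs.

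As a description over the 21 libraries, which share groups and scaling, the members' log2 CPM were compared with each other and with 8800 genes of average log2 CPM of at least 3. Among the members the highest Pearson correlation was that of Egr3 with Dusp5 (r = 0.87, n = 21 libraries), followed by Egr1 with Dusp5 (0.80) and Egr1 with Egr3 (0.79). The lowest was that of Dusp5 with Dusp6 (r = -0.83). The genes most like Egr1 were Dscam (r = 0.90) and Mapkapk3 (r = 0.89), those most like Egr2 were Irak1 (r = 0.93) and Stab1 (r = 0.92), and those most like Egr3 were Naaa (r = 0.92) and Aldh9a1 (r = 0.92). For Dusp1 they were Aldh1a2 (r = 0.92) and Nploc4 (r = 0.91), for Dusp2 Ppp1r15a (r = 0.98) and Icam1 (r = 0.97) and for Dusp4 Ampd3 (r = 0.97) and Gsr (r = 0.96). For Dusp5 they were Ctnna1 (r = 0.95) and Tollip (r = 0.95), for Dusp6 Cd276 (r = 0.96) and Akr1b10 (r = 0.96) and for Dusp16 Il1a (r = 0.99) and Mtmr7 (r = 0.98). The closest likeness of all was thus that of Dusp16 to Il1a, which encodes interleukin-1 alpha.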

How the data were processed

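RNA of 21 mouse macrophage cultures was read as 75 bp single-end libraries made from 100 ng of RNA, per the labels' protocols. The submitters' processing notes name CASAVA 1.8.2, kallisto 0.44.0, DESeq2 and the builds mm10 and GRCm38, with no role or order. The authors deposited a table they call raw, which was treated as estimated counts per gene: it holds whole numbers, so rounding changed none, and every gene sums to at least 10. Their second deposited table, of normalized signal, equals the first divided by a factor per gene and library whose geometric mean over libraries is 1 (tolerance 1e-06) for all 13034 genes without a 0, and 19.1% of these genes share one factor set. Groups and replicate numbers come from the titles. No 2 libraries of a group agreed within sampling noise.

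The main test was edgeR 4.0.16 (R 4.3.3): TMM factors, genes kept by filterByExpr at its default minimum of 10 counts, 1 quasi-likelihood fit of all 21 libraries, and Benjamini-Hochberg adjustment over 13468 genes with a threshold of 0.05. The design had named plain counts, and the test was kept because it also takes estimated counts. Log2 CPM for correlations used a prior count of 2. Alternatives were RLE factors, no filter, a mean of at least 10 counts, a replicate block, a GC correction by transcript content, both of these together, leaving out each library, leaving out both libraries out of order, only the groups compared, limma 3.58.1 with voom, DESeq2 1.42.0 and, added after the data were seen, limma on log2 of the authors' normalized signal plus 1. The script was tested on simulated counts. Sequences are RefSeq's. Protein features were planned and not run. The 9 genes and all lists were chosen with earlier results of these data known. All 9 are described, and of the lists the text names called genes, at most the 3 largest each way per comparison, plus, for each member, the 2 genes of highest Pearson correlation. One result that this rule picked is not reported here.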

Additional observations from a re-analysis of the deposited data

Results flagged for a closer look

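The difference between FcMR and isotype changed between 4, 12 and 24 h by the joint edgeR test in 3 of the 9 genes. Egr1 (adjusted p = 0.00184) was lower with FcMR at 12 h (-1.03 on the log2 scale), where 3 of 3 FcMR libraries lay below every isotype library, and 3 of 3 lay above at 24 h (0.55, a difference that did not pass). Dusp1 (edgeR adjusted p = 0.00849) had a difference that grew from 0.33 at 4 h to 1.13 at 24 h on the log2 scale, as the isotype mean went from 72.9 to 40.9 CPM and the FcMR mean from 92.04 to 89.6 CPM. Dusp5 (edgeR adjusted p = 0.0197) differed at 4 h (0.62) and had overlapping libraries afterwards. The Dusp5 test is the one of the 3 lost under the GC correction (edgeR adjusted p = 0.674), and the Dusp1 test was lost with no filter (0.0670) and in the authors' normalized table with limma (0.0544).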

How the results depend on the processing

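Of 693 values of the members under 11 alternatives other than leaving out 1 library, 634 kept direction and side of the threshold, 23 lost their call, 34 gained one and 2 reversed. The 2 were the uncalled Dusp5 difference at 12 h, 0.12 with the GC correction and 0.11 with the GC correction and replicate block. Of 1323 values with 1 library left out, 1249 were the same, 44 lost a call, 27 gained one and 3 reversed, all 3 uncalled isotype differences at 12 h (Dusp2 over a range of -0.18 to 0.07, Dusp16 over -0.08 to 0.05 with 0.00 without untreated replicate 2). The 51 results of list genes that the naming rule picked gave 1632 such values, of which 1544 were the same and 88 lost the call.

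Among FcMR calls, those of Egr2 at 4 h and 24 h, Dusp6 at 4 h and Dusp2 at 4 h were lost when only the groups compared were fitted (edgeR adjusted p = 0.0767, 0.0726, 0.153 and 0.0669), which leaves fewer samples for the spread. Egr2 at 4 h, Egr3 at 12 h and Dusp6 at 4 h were lost in the authors' normalized table with limma (adjusted p = 0.0821, 0.110 and 0.0800). Egr2 was lost with no filter at 4 h (0.0714) and 24 h (0.0868) by edgeR. Calls were gained as well: Dusp1 at 4 h passed under 8 of the 11 alternatives, Dusp4 at 4 h under 7, Dusp6 at 24 h under 6, Egr1 at 24 h under 4 and at 4 h under 1, and Dusp2 at 24 h under 2, the GC corrections without and with the block (0.0120 and 0.00918 as adjusted p).

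At 4 h, 2390 genes differed between FcMR and isotype with all libraries, against 3849 with the GC correction, 4010 with GC correction and block, 3898 without both libraries out of order and 868 with only the groups compared, and 5 members differed against 8 and 2 in the last 2 fits. At 12 h, 2169 genes became 3363 with GC correction and 3561 with the block added. At 24 h, 4 members became 7 in both, while 2813 genes became 4034 with GC correction and 4176 with the block added. The isotype count at 4 h went from 4792 to 2881 with only the groups compared. The joint test called 1484 genes, and 925 with no filter, 3010 with GC correction, 3200 with the block added, 2616 without both libraries and 969 in the authors' normalized table, with 5 members in place of 3 without both libraries. The causes were not tested.

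With 1 library left out, FcMR against isotype called 1589 (without FcMR replicate 2) to 3151 genes (without isotype replicate 3) and 4 to 7 members at 4 h, 1570 to 2469 and 5 to 7 at 12 h, and 2091 to 3161 and 3 to 5 at 24 h. Isotype against untreated called 3784 to 6251 and 4 to 5, 4577 to 6097 and 6 to 7, and 4876 to 6217 and 9. The joint test called 973 (without FcMR 4 h replicate 2) to 2294 genes (without isotype 4 h replicate 3) and 2 to 4 members. Of the genes called at 4 h, 48.6% were higher with FcMR by TMM, 62.7% by RLE, 64.4% by DESeq2, 75.2% with no filter, 72.4% with only the groups compared and 65.0% in the authors' table, and for isotype against untreated at 4 h 57.2% went to 45.5% with no filter and 45.2% with GC correction.

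Same-numbered libraries of the 2 groups compared deviated together with mean correlations of -0.071 to 0.106, and not every pair passed 0.1, so the numbers were not taken to pair samples. With a replicate block edgeR called 2541, 2290 and 2911 genes for FcMR against isotype, and the only member call it changed there was Dusp4 at 4 h (0.70, adjusted p = 0.0309). Depth limits Egr3 most, with 7 to 379 counts a library.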
